A study of Saccharomyces cerevisiae with 6 samples.

Results

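The first stretch of the 5' external transcribed spacer (5'ETS) of yeast ribosomal RNA was examined for 1M7 reactivity. It was taken by position, from nucleotide 1 of the 35S pre-rRNA to G278, upstream of the first site where the U3 snoRNA pairs with the spacer. It makes up 4.05% of the 6858 nucleotides of the transcript, and all of its nucleotides had a value in at least 1 strain. The stretch lies at the 5' end of RDN37-1, the 35S gene of the rDNA on chromosome XII. The deposited annotation gives the 5'ETS positions 1 to 700 of the transcript. Positions below count from the first transcribed nucleotide, which is 1.

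RNA came from particles of Saccharomyces cerevisiae strain BY4741 that were purified through TAP-tagged Mrd1. The 6 libraries form 3 groups of 2. The strain called the mutant here carries mrd1-deltaRDB5-TAP, read as Mrd1 without its RNA-binding domain RBD5, together with an HA-tagged MRD1 gene labelled pGAL. It gave 2 libraries treated with the solvent DMSO and 2 treated with 1M7. The Erb1-depleted strain, called the depleted strain below, carries 3HA-tagged ERB1 labelled GAL and intact TAP-tagged MRD1, and gave 2 libraries with 1M7. The labels show none with DMSO for it, and no strain without either change was analysed here. Differences due to RBD5 loss and to Erb1 depletion can therefore not be told apart. Glucose medium and galactose with raffinose are both listed as growth media, without saying which group had which. The deposited sheet holds 1 value per nucleotide and strain, so no difference could be set against a spread between libraries and no test was made. Read numbers were not analysed here, so the depth behind each value is unknown.

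The 5'ETS is the first part of the ribosomal transcript to leave RNA polymerase I. Its 5' end is known as the landing site of the UtpA complex, which starts assembly of the 90S pre-ribosome, and the spacer folds into a series of hairpins before it pairs with U3 and is cut away. Mrd1 is an RNA-binding protein of these early particles that is needed to make 18S rRNA, and Erb1 acts in the large subunit pathway. The reagent 1M7 reacts with the ribose of nucleotides that can move, and cDNA synthesis ends beside the product, so unpaired and unbound nucleotides tend to give high values.

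The sequence of the stretch is shown for each strain, since the positions of the marked nucleotides carry the result. Capitals mark nucleotides called modified, meaning that the authors' BUM_HMM posterior probability of modification was at least 0.95. The sequences are those of the deposited transcript, 5' to 3', written as RNA.
Mutant: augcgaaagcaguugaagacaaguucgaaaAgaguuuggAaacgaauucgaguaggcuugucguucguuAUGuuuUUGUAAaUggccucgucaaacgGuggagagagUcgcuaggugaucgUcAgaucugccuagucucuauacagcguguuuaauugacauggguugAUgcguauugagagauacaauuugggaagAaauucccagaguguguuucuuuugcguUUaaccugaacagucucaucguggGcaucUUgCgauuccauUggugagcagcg
Erb1-depleted: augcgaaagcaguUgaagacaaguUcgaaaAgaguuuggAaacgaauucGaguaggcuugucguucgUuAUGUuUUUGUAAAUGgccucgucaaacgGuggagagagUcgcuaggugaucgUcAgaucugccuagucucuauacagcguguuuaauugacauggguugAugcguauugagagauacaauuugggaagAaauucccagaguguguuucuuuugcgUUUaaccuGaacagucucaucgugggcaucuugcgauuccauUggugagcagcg

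In the mutant 26 nucleotides of the stretch were modified (9.35%, Wilson 95% interval 6.46 to 13.4), against 18.5% over the transcript. In the depleted strain 31 were modified (11.2%, interval 7.97 to 15.4), against 21.1% over the transcript. These intervals take each nucleotide as independent of its neighbours and say nothing of the spread between libraries. Of these nucleotides 21 were modified in both strains, 5 only in the mutant and 10 only in the depleted strain, and the other 242 in neither. Of those modified in at least 1 strain, 13.9% were thus modified only in the mutant and 27.8% only in the depleted strain, near the 14.4% and 24.7% of the transcript. The remaining 5'ETS (from A279 to nucleotide 700) had 5.92% in the mutant and 9.95% in the depleted strain, also below the transcript. Mean normalized reactivity, the authors' score scaled by 1 factor per strain, was 0.358 (SD 0.485 over nucleotides) in the mutant, above its transcript mean of 0.248, and 0.275 (SD 0.423) in the depleted strain, near its transcript mean of 0.256. The means were 0.294 and 0.346 in the remaining 5'ETS, and 0.350 and 0.295 in ITS1. In the stretch the score was 0 at 105 nucleotides in the mutant (37.8%, against 49.1% of the transcript). In the depleted strain it was 0 at 49.1% of the nucleotides measured, near the 48.7% of the transcript.

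The shared nucleotides were A31, A40, A70, U71, G72, U76, U77, G78, U79, A80, A81, U83, G98, U108, U122, A124, A169, A198, U226, U227 and U267. The most reactive were A124 and A169, which ranked 1 and 2 of the whole transcript in the mutant and 1 and 5 in the depleted strain. Values from here on are normalized reactivities unless another scale is named. A124 had 3.07 in the mutant and 2.23 in the depleted strain, and A169 had 2.86 and 2.17. U122, 2 nucleotides before A124, had 2.36 and 1.91. The next most reactive by the naming rule were A80 (2.03 and 1.94), U108 (1.91 and 1.39), A198 (1.79 and 1.61), U227 (1.51 and 1.63) and G98 (1.50 and 1.61). Apart from U122, which the spacing of the naming rule leaves out, these hold ranks 1 to 7 in each strain's own list of 10. Further down the lists differed. C258 and U71 were in that of the mutant only, and G233 and A70, which is next to U71, in that of the depleted strain only. The 10 nucleotides modified only in the depleted strain were U14, U25, G50, U68, U73, U75, A82, G84, U225 and G233. At U14 the posteriors lay close together, 0.944 in the mutant and 0.974 in the depleted strain, and reactivity was 1.09 and 0.875. U25 had 1.04 and 0.648, with posteriors of 0.237 and 1.000, so the higher reactivity went with the lower posterior. U225 had 0.838 and 0.749, U73 0.498 and 0.472, and G84 0.353 and 0.638.

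**Figure D1:**
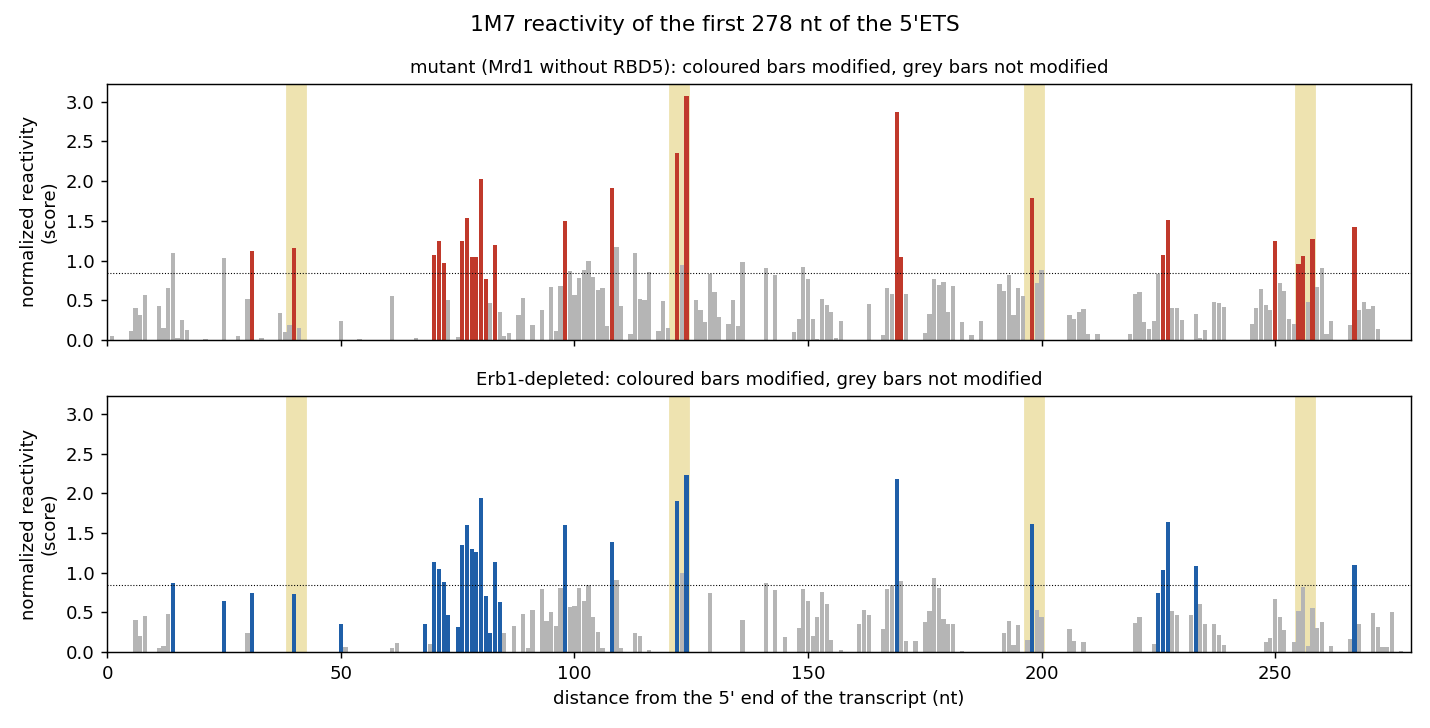
Normalized reactivity (score) from nucleotide 1 to G278 against distance from the 5' end, with the mutant above and the depleted strain below; coloured bars are modified nucleotides, the dotted line is at 0.85 and the shaded bands are the loops of 4 predicted hairpins. Both strains show single peaks up to A124 (3.07 and 2.23) and a dense group of modified nucleotides between 70 and 83.

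Modified nucleotides were not evenly spread. The 14 nucleotides from 70 to 83 held 10 of the 26 modified nucleotides of the mutant (38.5%) and 13 of the 31 of the depleted strain (41.9%). The longest run of adjacent modified nucleotides was U76 to A81 in the mutant, 6 long, and U75 to G84 in the depleted strain, 10 long. The run of the depleted strain includes U75 (0.318) and A82 (0.247), called modified at low normalized reactivity. A82 had a higher value in the mutant (0.470), where it was not modified. Mean normalized reactivity of nucleotides 70 to 83 was 0.942 (mutant) and 0.958 (depleted strain). It was 0.141 and 0.0867 over nucleotides 1 to 69, where 2 and 6 nucleotides were modified, and 0.393 and 0.293 from G84 to G278. The bounds 70 and 83 were chosen after the values were seen.

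To set these values against structure, the stretch was folded from its sequence alone with RNAfold, without the reactivities and without proteins or U3. The predicted structure (minimum free energy −105.7 kcal/mol) has 4 hairpins with loops of 4 nucleotides each, and pairs 202 nucleotides and leaves 76 unpaired. The tips of the hairpins are shown because 3 of the 4 loops hold nucleotides modified in both strains. Capitals mark the loop.
G32 to C49: gaguuugGAAAcgaauuc
G110 to U136: gcuaggugaucGUCAgaucugccuagu
U189 to A208: uuugggaaGAAAuucccaga
U247 to A265: ugggcaucUUGCgauucca

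Predicted unpaired nucleotides were more reactive than paired ones in both strains. In the mutant the mean normalized reactivity was 0.528 over unpaired and 0.294 over paired nucleotides, and 14 (18.4%) against 12 (5.94%) were modified. In the depleted strain the means were 0.480 and 0.197, and 15 (19.7%) against 16 (7.92%) were modified. The 16 loop nucleotides stood highest in the mean, at 0.940 in the mutant and 0.661 in the depleted strain. The other 60 unpaired nucleotides had 0.418 and 0.432. A predicted pairing is a description of the sequence, not a measurement of the particle.

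The loops of hairpins 1 and 3 have the same sequence, GAAA, of the GNRA kind that is common in ribosomal RNA, and the same nucleotide of each was modified. At A40, the second nucleotide of the first loop, normalized reactivity was 1.16 (mutant) and 0.734 (depleted strain). Its neighbours G39, A41 and A42 had 0.196, 0.153 and 0 in the mutant and 0 at all 3 in the depleted strain. At A198, the second nucleotide of loop 3, the values were 1.79 and 1.61. G197 had 0 and 0.149, A199 0.723 and 0.527, and A200 0.879 and 0.442. The second nucleotide was thus the highest of both loops in both strains.

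The second loop, GUCA from G121 to A124, held the highest value of the stretch. G121 was at 0 in both strains, U122 had 2.36 in the mutant and 1.91 in the depleted strain, C123 had 0.95 and 0.996, and A124 had 3.07 and 2.23. U122 and A124 were modified in both strains and C123 in neither, with a posterior of 0.0199 in the mutant and 0.931 in the depleted strain. The last loop, UUGC from U255 to C258, differed between the strains. U255 had 0.958 and 0.522, U256 1.06 and 0.816, G257 0.475 and 0.0828, and C258 1.27 and 0.561. U255, U256 and C258 were modified in the mutant and none of the 4 in the depleted strain.

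**Figure D2:**
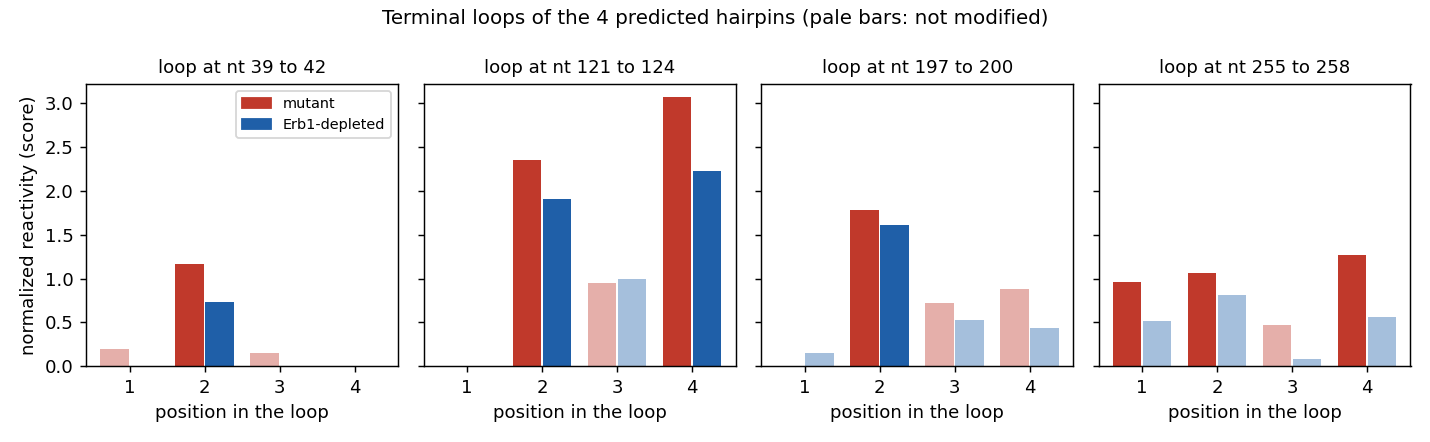
Normalized reactivity (score) at positions 1 to 4 of the terminal loop of each predicted hairpin, with the mutant in red and the depleted strain in blue; pale bars are nucleotides not modified, and an absent bar is a value of 0. Position 2 is the highest of both GAAA loops, at A40 (1.16 and 0.734) and A198 (1.79 and 1.61), and the loop from U255 to C258 is modified in the mutant only.

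The group at 70 to 83 goes against the predicted pairing. Nucleotides 71 to 80 are predicted to pair with nucleotides 2 to 11 in the outermost helix of the first hairpin. These strands are shown with nucleotides modified in both strains in capitals.
Nucleotides 2 to 11: ugcgaaagca
Nucleotides 71 to 80: UGuuuUUGUA
The downstream strand had a mean normalized reactivity of 0.967 (mutant) and 1.02 (depleted strain), and 7 and 9 of its 10 nucleotides were modified. U74, the only one modified in neither strain, was at 0 in both. The upstream strand had 0.184 and 0.113, with 0 of 10 modified in either strain and a highest value of 0.569 in the mutant and 0.460 in the depleted strain. The strands of 1 predicted helix thus had different values, and this held in both strains. A169, the second most reactive nucleotide of the transcript in the mutant, is likewise predicted to pair, with U226, which was itself modified (1.07 and 1.03). A169 closes its helix beside the unpaired U170 (1.05 and 0.898, modified in the mutant only, with posteriors of 0.985 and 0.918). Without nucleotides 71 to 80 the mean of the paired nucleotides was 0.259 (mutant) and 0.154 (depleted strain).

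**Figure D3:**
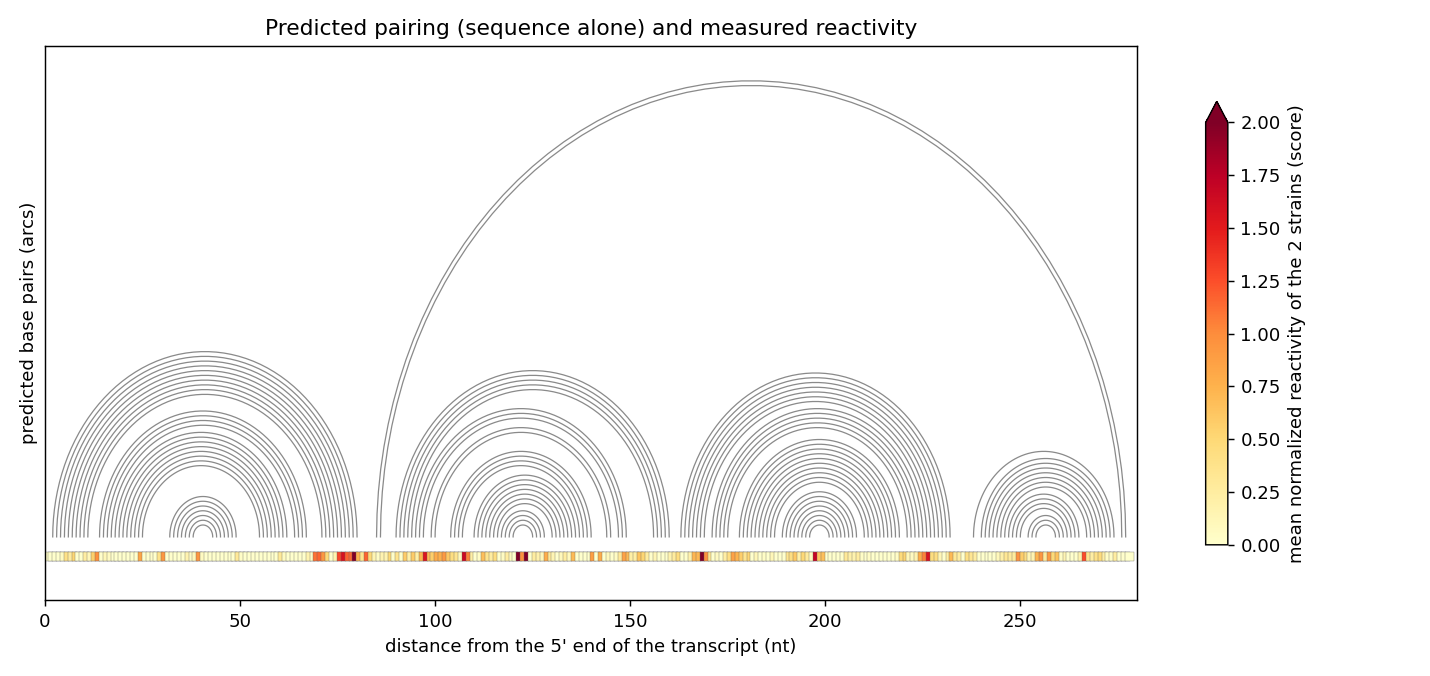
Base pairs predicted from sequence alone (arcs) from nucleotide 1 to G278, above a strip coloured by the mean normalized reactivity of the strains (score, darkest at 2 and above). The downstream strand of the first hairpin, nucleotides 71 to 80 (0.967 and 1.02), is dark, and its partner strand, nucleotides 2 to 11 (0.184 and 0.113), is pale.

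By base, uridines made up more of the modified nucleotides than adenosines. In the mutant 13 of 26 were U (50.0%) and 8 were A (30.8%), whereas over the transcript A made up 50.5% and U 27.0%. Of the 70 adenosines of the stretch 11.4% were modified (interval 5.91 to 21), against 34.7% of adenosines of the transcript. Of its 85 uridines 15.3% were modified (interval 9.16 to 24.4), against 18.1%. In the depleted strain 16 of 31 were U and 9 were A, and 12.9% of adenosines were modified against 38.2% over the transcript. The mean normalized reactivity of adenosines was 0.486 in the mutant, against 0.433 for those of the transcript, and that of uridines 0.424 against 0.242. In the depleted strain adenosines were below those of the transcript (0.365 against 0.423), and uridines above (0.345 against 0.229).

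High reactivity without a modified call made up a larger share here than over the transcript. Normalized reactivity was at least 0.85, a limit commonly used for highly reactive nucleotides, at 39 nucleotides in the mutant (14.0%, against 8.17% over the transcript) and at 27 in the depleted strain (9.75%, against 8.69%). Of the 39, 25 were modified (64.1%, interval 48.4 to 77.3), against 90.5% of such nucleotides over the transcript. Of the 27, 20 were modified (74.1%, interval 55.3 to 86.8), against 87.9%. Of such nucleotides 60.0% and 73.7% were modified in the remaining 5'ETS, and 85.5% and 94.4% in ITS1. Of the 14 highly reactive nucleotides without a modified call in the mutant, 10 lay between U99 and U149, bounds chosen after the values were seen. In the depleted strain 4 of 7 such nucleotides lay there. By the naming rule the most reactive nucleotides modified in neither strain were C109 (1.17 in the mutant and 0.904 in the depleted strain), C123, G103 (0.991 and 0.85), A141 (0.908 and 0.869) and U149 (0.922 and 0.793). The other way round, 4 nucleotides of the depleted strain were modified at a normalized reactivity under 0.4. They were G50 (0.355), U68 (0.358), U75 (0.318) and A82 (0.247), and none of them was modified in the mutant. They are 12.9% of the modified nucleotides of the depleted strain, near the 15.6% of the transcript. The mutant had 0 such nucleotides here, against 212 (17.4%) over the transcript. It likewise had 0 in the remaining 5'ETS, in ITS1 and in ITS2, so this is not particular to the stretch. For the depleted strain these were 0 of 42 modified nucleotides in the remaining 5'ETS, 1 of 68 in ITS1 and 4 of 31 in ITS2.

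The strains were then compared across the stretch. Over its 277 nucleotides measured in both strains, the raw reactivities, the authors' scores before scaling, correlated with a Pearson r of 0.891 and a Spearman rho of 0.841. This is a correlation across nucleotides, which are not independent and may share control libraries. U270 has no value in the depleted strain. The mean raw reactivity was 0.0361 in the mutant (SD 0.130 over its nucleotides, U270 included) and 0.00605 in the depleted strain (SD 0.157). The mean difference, mutant minus Erb1-depleted, was 0.0299 (SD 0.0719), and 184 nucleotides were higher in the mutant and 93 lower. The raw scores of each strain have a mean of 0 over the transcript, so this difference is relative to the other regions and does not show a higher reactivity in absolute terms. It came from the 241 nucleotides modified in neither strain, with a mean of 0.0365 and 170 higher in the mutant against 71 lower. The 36 modified in at least 1 strain had a mean of −0.0146, with 14 higher and 22 lower. By normalized reactivity, however, 24 of these 36 were higher in the mutant and 12 lower. The stretch from A279 to nucleotide 700 had a mean difference of −0.00947, ITS1 of 0.0156 and ITS2 of −0.0209. Within the stretch the mean difference was positive in each of 7 windows of up to 40 nt, from 0.0126 at nucleotides 161 to 200 to 0.0578 at nucleotides 1 to 40.

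**Figure D4:**
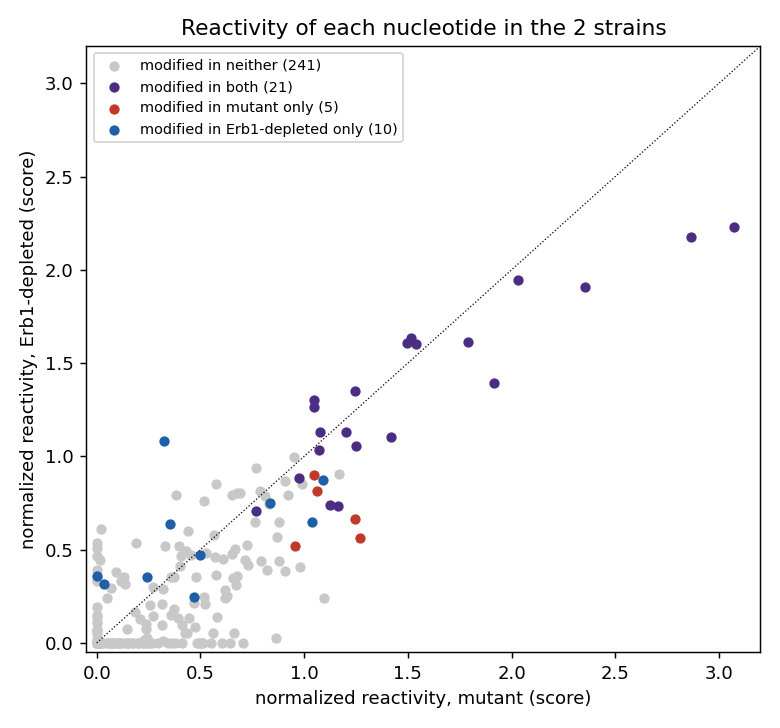
Normalized reactivity (score) in the mutant against the depleted strain for the 277 nucleotides measured in both, coloured by modification; the dotted line marks equal values. The 21 nucleotides modified in both strains include the highest, A124 (3.07 and 2.23), which is higher in the mutant.

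Differences were called by the authors' deltaSHAPE rule. Raw scores were smoothed over 3 nt, and the difference was centred and divided by its SD over the transcript to give a standardized difference, positive where the mutant is higher. A call needs at least 1 SD, a Z-factor above 0, and 3 such nucleotides in a window of 5. Among the 36 nucleotides modified in at least 1 strain, 1 was called higher in the mutant and 5 higher in the depleted strain. Over the transcript these calls were 53 and 337, among 1622 such nucleotides. As shares of all nucleotides measured in both strains, calls made up 0.361% and 1.81% of the stretch, against 0.81% and 5.15% of the transcript. Modified nucleotides, the only ones that can be called here, are rarer in the stretch. The lower shares therefore do not by themselves show that modified nucleotides differed less often.

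G233 had the largest difference toward the depleted strain, with a standardized difference of −2.21. Its normalized reactivity was 0.324 (mutant) and 1.08 (depleted strain), and it was modified in the latter alone. It lies in the unpaired stretch between hairpins 3 and 4, where A234 also had 0.0219 against 0.611. G233 was called on each of the 4 other scales tried (the strains' own factors, equal SD, quantile normalization, and normalized values with negatives at 0), with a running median taken out and without smoothing. It was not called at a threshold of 2 SD, where no nucleotide modified in either strain was. U76, U77, G78 and U79, in the dense group, were called higher in the depleted strain with standardized differences of −1.08, −1.24, −1.34 and −1.25. Their normalized reactivities were 1.24 and 1.35 at U76, 1.54 and 1.60 at U77, 1.05 and 1.30 at G78, and 1.05 and 1.26 at U79. None of these 4 was called on any of the 4 other scales or without smoothing. All 4 were called with a running median taken out.

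C258, in the last loop, was the nucleotide called higher in the mutant, with a standardized difference of 1.26. It kept the call on the 4 other scales and lost it without smoothing and at a threshold of 2 SD. With each strain multiplied by its own factor, 7 nucleotides passed as higher in the mutant, namely A40, U108, A124, U170, G250, U256 and C258, and G233 as higher in the depleted strain. The balance of calls at modified nucleotides thus turned with the scale. G250, 1 of the 5 nucleotides modified in the mutant only, had 1.25 in the mutant and 0.664 in the depleted strain, with posteriors of 0.999 and 0.0219. Of those 5 nucleotides 4, at 250 to 258, lie in the last hairpin.

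**Figure D5:**
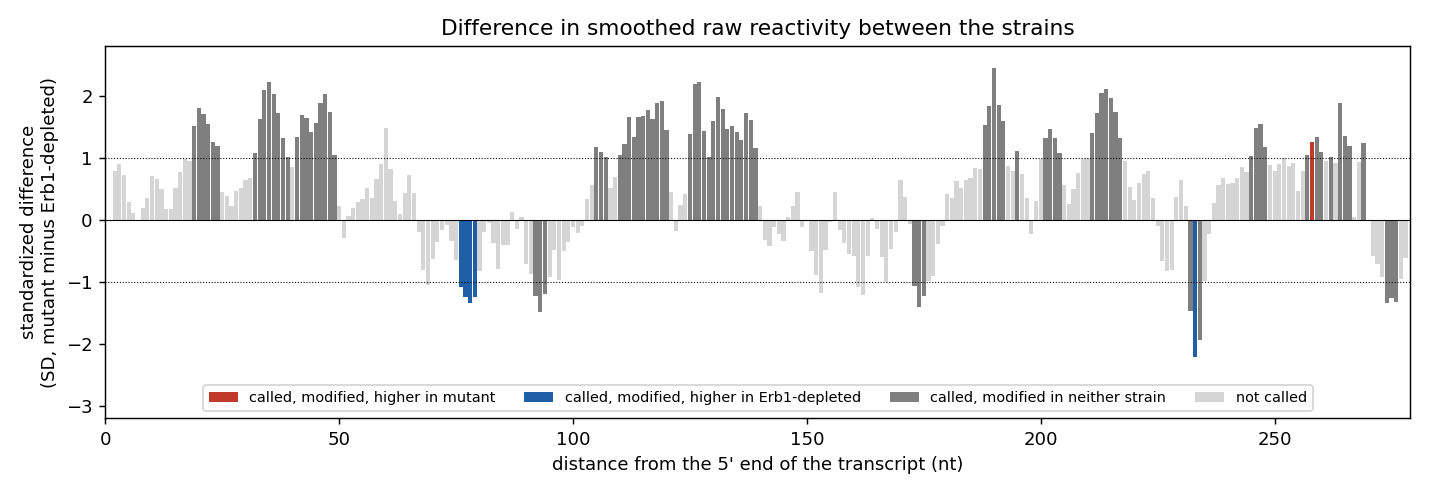
Standardized difference (SD, mutant minus Erb1-depleted) of smoothed raw reactivity against distance from the 5' end; red and blue bars are called nucleotides modified in at least 1 strain, dark grey bars are called and modified in neither, and dotted lines mark 1 SD. Blocks above 1 SD cover both sides of the loop at A124, and G233 (−2.21) is the lowest bar.

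Without the filter on modified nucleotides, 82 nucleotides were called higher in the mutant (29.6% of 277, against 13.7% of the transcript) and 16 in the depleted strain (5.78%, against 11.4%). Of these, 81 and 11 were modified in neither strain. Over the transcript the filter kept 53 of 897 calls toward the mutant and 337 of 749 toward the depleted strain. Most calls toward the mutant thus lay at unmodified nucleotides there too. The longest runs higher in the mutant were the one starting at G125, 15 long, and the one from G110 to C120, 11 long. They cover both strands of the predicted stem under the GUCA loop, G110 to C120 and G125 to U136 without the bulged U129. This stem was singled out after its values were seen. All 22 nucleotides of this stem had a higher raw score in the mutant, with a mean of 0.0617 against −0.0482. Mean normalized reactivity was 0.369 (mutant) and 0.0424 (depleted strain), and 4 and 17 of the 22 were at 0. A113 had 1.09 and 0.242, U136 0.980 and 0.406, and U116 0.862 and 0.0254. The posterior reached at most 5.34e-08 in the mutant and 2.34e-17 in the depleted strain, so none was near a modified call. In the loop the raw scores were 0.452 and 0.438 at U122 and 0.590 and 0.512 at A124, and at the bulged U129 they were 0.159 and 0.172. The loop does not stand apart from the stem on every scale, since A124 was called higher in the mutant with the own factors, with equal SD and with negatives at 0. On the own-factor, equal-SD and quantile scales all 22 kept the direction and the call. With negatives at 0, 18 were higher in the mutant, the other 4 were at 0 in both strains, and 20 were called. With a running median taken out 21 were called, without smoothing 14, and at a threshold of 2 SD 0.

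The other large differences toward the mutant, by the naming rule, were at U190 (standardized difference 2.45), U127 (2.22), U35 (2.21), U214 (2.10) and U47 (2.03), all predicted to pair. Except for U127 (0.375 in the mutant), their normalized reactivity was 0 in both strains, and their raw scores were negative, as at U190 (−0.0168 and −0.135). These differences lie between values below the transcript mean. Toward the depleted strain, after G233, they were at A93 (−1.49, normalized reactivity 0.380 and 0.791), U174 (−1.41), C274 (−1.34) and G78. Paired and unpaired nucleotides differed in this comparison. Of 201 paired nucleotides measured in both strains, 148 had a higher raw score in the mutant (mean difference 0.0438). With negatives at 0 the mean difference was 0.0185, with 92 higher in the mutant and 33 lower. Of 76 unpaired nucleotides 36 did (mean difference −0.00691, of the opposite sign on the 4 other scales, up to 0.0101).

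At the downstream edge the difference went toward the depleted strain. Other runs within the stretch did so too, such as G90 to A94. The nucleotides from C274 to G278 (cagcg) were all lower in the mutant, with raw differences from −0.127 at A275 to −0.0469 at G276, and none was modified in either strain. Just outside, A279 had normalized reactivities of 0.396 (mutant) and 0.240 (depleted strain), A280 had 0.780 and 0.765, G281 0.274 and 1.01, and G282 0 and 0.854. The last 2 are called higher in the depleted strain, and A279 and A280 are not called.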

How the data were processed

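Libraries were made with random hexamers, SuperScript III and CircLigase II, per the labels' protocols. The submitters' processing notes name Novoalign. Its version, and how raw scores were made, are not given in the sources used here. Per the file headers, the authors deposited 1 column of scores for each strain. The column named D5 was read as the mutant. The raw score has a mean of 0 per strain, and normalized scores equal raw scores times 5.21 (mutant) or 4.35 (Erb1-depleted) with negatives set to 0. The sheet marks insufficient coverage, and such values were dropped.

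The authors' calling rule was recomputed over all 6542 nucleotides measured in both strains. It matched the deposited calls, with 0 differing before and 0 after the filter on modification. Of the Z-factors of the stretch, 3 were at or below 0. The rule was tested on simulated data. That simulation left out the Z-factor and the filter on modification and kept both strains on the same scale. It cannot show how far the calls reported here depend on the scale. Pairing came from ViennaRNA 2.7.2 at 37 °C. Regions were placed one after another from their annotated lengths. The named nucleotides were those modified in either strain, those called, the 5 largest differences each way, the 10 most reactive of each strain and the 5 most reactive unmodified ones (at most 1 per 5 nt), and the edge at 274 to 284. The members and lists were chosen with earlier results of these data known. With 1 value per strain, all comparisons are descriptions without a test.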

Additional observations from a re-analysis of the deposited data

How the results depend on the processing

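No paired analysis was possible because each strain has 1 column in which its libraries are not told apart, so no library could be left out either. The shares of modified nucleotides stayed within their intervals at posteriors of 0.9 and 0.99 and with the bounds of the stretch moved. The calls at modified nucleotides, 1 higher in the mutant and 5 in the depleted strain, became 7 and 1 with the factors of the strains applied, 7 and 1 with the SDs made equal, 8 and 1 with quantiles matched and 9 and 1 when negative scores were put to 0. They came to 1 and 9 after subtracting a running median, 2 and 1 without smoothing, 0 and 0 at a threshold of 2, and 82 and 16 without the filter on modification. The mean raw difference, 0.0299, was 0.0160 with negatives at 0 (in units of the mutant's raw score) and 0.0163 with the running median taken out, and positive under every setting tried. Mean normalized reactivity, 0.358 and 0.275, gives way to medians of 0.163 and 0.0158. The excess of unpaired over paired reactivity, 0.233 and 0.282, was 0.223 and 0.267 when nucleotides 1 to 700 were folded, which changed the pairing of 9 nucleotides. With reactivities moved by 1 nt upstream it was 0.198 and 0.175, and downstream 0.117 and 0.162. For the stem under the GUCA loop, a set chosen after the values were seen, the mean raw difference of 0.110 was 0.0626 with negatives at 0 and between 0.0958 and 0.102 under the 4 other settings tried. That of the paired nucleotides, 0.0438, was 0.0185 with negatives at 0. The mean difference of unpaired nucleotides, −0.00691, was 0.00907 with the factors applied, 0.0101 with equal SDs, 0.00817 with quantiles matched, 0.00916 with negatives at 0 and −0.0216 with the running median taken out. The depth of each nucleotide is unknown, so how far it limits these values was not tested.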
